A study of Bos taurus with 8 samples.

Results

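The genes described here are the BCL2 family, the caspases, the mitochondrial death factors, the inhibitors of apoptosis and the death receptors with their adaptors, in granulosa cells of atretic and growing dominant follicles of cattle. A list of 41 genes was matched by symbol to the annotation of a 2-colour bovine array. Of these, 36 genes had a probe, 49 probes in all, among 43794 probes for 15229 named genes. No probe was matched by symbol for BIK, BBC3, PMAIP1, CASP10 and BIRC2, which are not analysed here. Granulosa cells, which line the follicle and nourish the egg, were scraped from follicles over 9 mm on ovaries of Holstein cattle collected at slaughter. There were 4 follicles in the atretic phase, set against 4 in the growing phase, with no treatment in either. The phase of a follicle was assigned in the study from the DNA content of its cells by flow cytometry, which included the share of cells with less DNA than a resting cell, itself a sign of apoptosis. The stage of cycle of the animals was not known and their age is not given. Nor is it given whether the follicles came from separate animals, so a p-value here covers only the spread among these 8 follicles.

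Apoptosis can start at the mitochondrion or at the cell surface. Anti-apoptotic members of the BCL2 family hold back the pore-formers BAX and BAK1, while BH3-only proteins release that hold, and the related pore-former BOK is controlled mainly through its degradation. Open pores let out cytochrome c, which assembles APAF1 and caspase 9 into the apoptosome, whereas ligated death receptors recruit FADD and caspase 8. Loss of granulosa cells by apoptosis is a known feature of follicular atresia, and much of the machinery is switched on by protein cleavage or release, which a transcript array does not measure.

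RNA of an atretic follicle shared an array with RNA of a growing follicle, and a second array held them with the dyes exchanged, which gave 4 pairs and 8 arrays. Ratios are log2 of atretic over growing, averaged over the dye swap, with the standard error (SE) of the limma model. Levels are normalised log2 intensities of a follicle, averaged over its arrays, and are compared only within a probe. Signal exceeded the negative control spots, whose 95th percentile lay near a log2 intensity of 7.06, for 48.4% to 72.1% of the probes, depending on array and dye. The dye-swapped arrays of a pair correlated at 0.624 to 0.776 across probes. In the averaged ratios the correlation among pairs 2, 3 and 4 was 0.227 to 0.502, and that of pair 1 with them was -0.223, -0.373 and -0.0592. The direction given by the dyes in the labels was kept for pair 1, and results that turn on it are given with and without it. Of the 10 granulosa markers examined, 8 were above the negative controls on all arrays in both phases.

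Among the 41 genes, 2 were higher in atretic follicles by the threshold used in the study, a fold of at least 1.5 with an unadjusted p under 0.05, and 0 were lower. These were CASP4, an inflammatory caspase, and BCL2L2, an anti-apoptotic member of the BCL2 family. Of the 36 genes with a probe, 35 had one past the intensity minimum, and each was represented by its brightest probe. Of these 35, 19 were above the negative controls on all arrays in both phases. The count of 2 of 35 can be read against the share of all 13626 named genes that passed the same threshold, 5.11%, made up of 2.66% higher and 2.44% lower. By probes, 4 of the 47 tested passed, all higher, against 3.51% of all 36295 probes, 1.81% higher and 1.71% lower. After Benjamini-Hochberg adjustment over all probes in limma, 0 members passed, with adjusted p from 0.716 to 0.997, and 0 of 36295 probes passed anywhere on the array. At an unadjusted p under 0.05 in limma there were 3 members, with BIRC3 as the third, against 8.39% of named genes and 6.4% of probes.

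The members as a whole lay about evenly on both sides of no difference. Mean ratios were above 0 for 19 members and below 0 for 16, and 52.3% of all named genes were above 0. The median ratio was 0.05 over the members and 0.01 over named genes. The median size of the ratio, whatever its sign, was 0.25 for members and 0.16 for named genes, with a median SD over pairs of 0.45 for members and 0.40 for named genes. All 4 pairs had the same sign for 6 members, CASP4, BCL2L2, BCL2L11, BIRC3, MDM2 and CASP6, or 6 of 35, where 15.1% of named genes did. These are signs of dye-swap averages. For BCL2L11, BIRC3, MDM2 and CASP6, the dye-swapped arrays of a pair differed in sign in part of the pairs. Pair 1 was opposite in sign to the other pairs for 12 of 35 members, against 21.9% of named genes. With pair 1 left out, 6 of 35 members passed the threshold, BCL2L2, CASP4, CASP9 and APAF1 higher and CYCS and DIABLO lower. The share of named genes that passed also grew in that setting, to 13.2%, and that of probes to 9.37%.

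**Figure D1:**
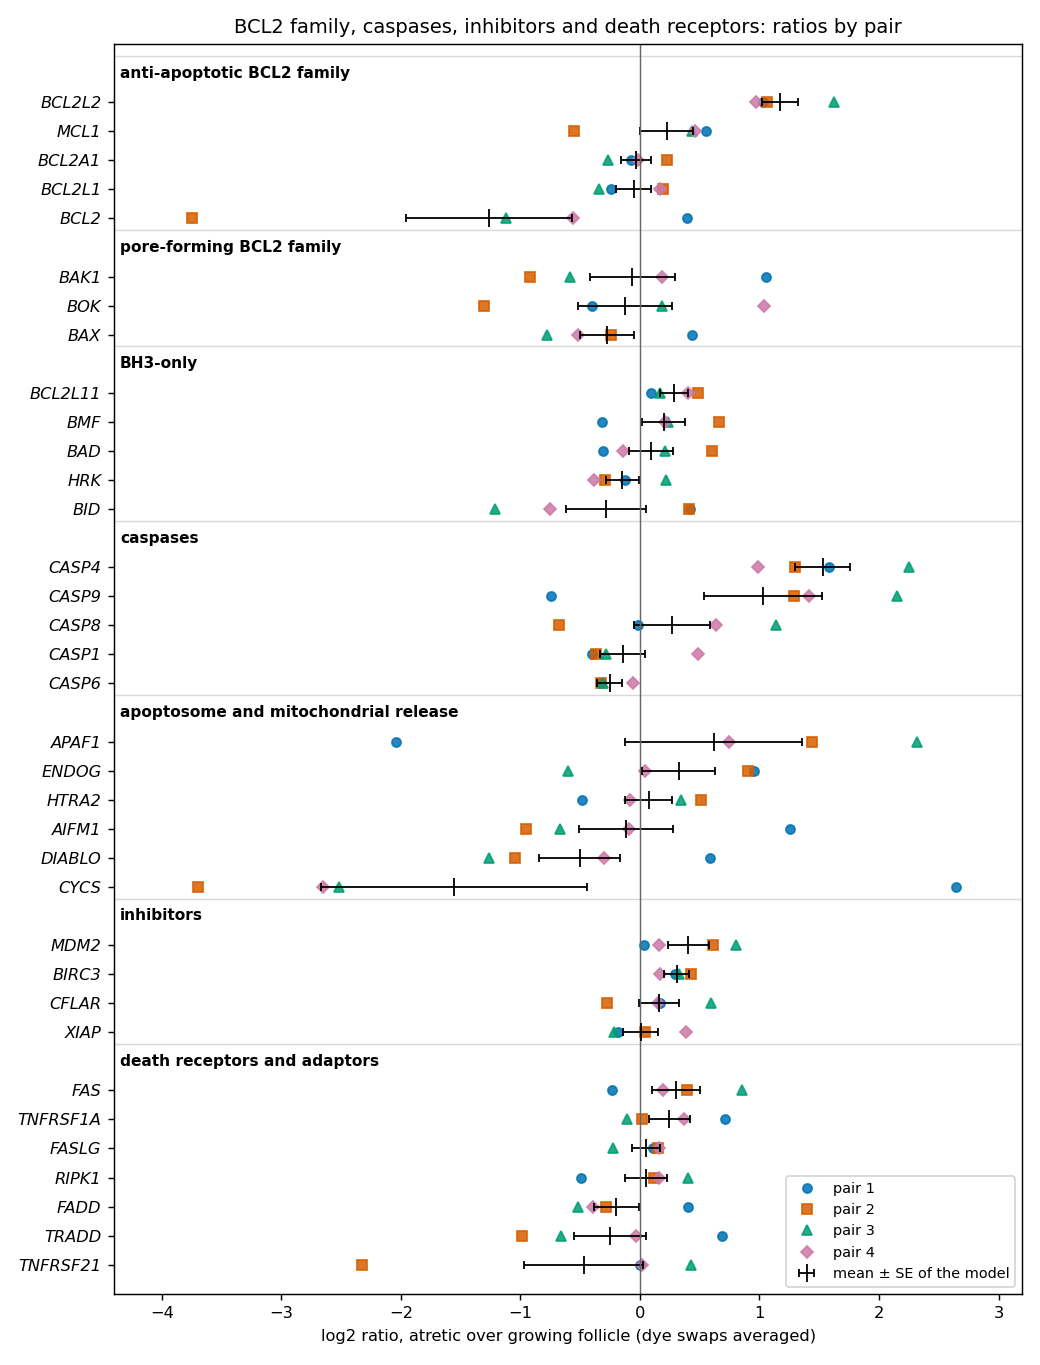
Log2 ratio of atretic over growing follicles (horizontal axis) for the 35 members tested, 1 row each, grouped by role. Coloured symbols are the 4 pairs with dye swaps averaged, and the black bar is the mean with the SE of the model. CASP4 and BCL2L2 lie to the right of 0 in all 4 pairs, while CYCS, APAF1, CASP9 and DIABLO have pair 1 on the opposite side of 0 from the others.

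CASP4 had the highest mean ratio of the 35 members. It encodes a caspase that, in humans, senses bacterial lipopolysaccharide inside the cell and cuts gasdermin D, and a table of RefSeq genes gives CASP13 as another name of the bovine gene. Its brightest probe, EMBV3_18477, read 8.65, 9.37, 9.59 and 8.78 in the atretic follicles of pairs 1 to 4. In the growing follicles of the same pairs it read 7.06, 8.07, 7.34 and 7.80. Every atretic follicle was above every growing one, and CASP4 was the 1 member of 35 for which the phases did not overlap, where 3.62% of named genes did not. The pair ratios were 1.58, 1.30, 2.25 and 0.98, with a mean of 1.53 ± 0.23 (SE, n = 4 pairs), a 2.88-fold higher level in atretic follicles with a limma adjusted p of 0.716.

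The other probes of CASP4 gave the same direction. Probe EMBV3_16373 read 7.68, 8.51, 8.74 and 7.65 in atretic follicles, against 6.60, 7.32, 6.56 and 6.85 in growing follicles, a ratio of 1.32 ± 0.25. Probe EMBV3_09332 read 8.02, 8.77, 8.90 and 8.23 in atretic follicles, against 7.89, 7.86, 7.18 and 7.63 in growing follicles, a ratio of 0.84 ± 0.28. In the dye-swap averages the phases did not overlap on either probe, although atretic and growing follicles of pair 1 differed by only 0.13 on EMBV3_09332. The dye-swapped arrays of pair 1 disagreed on that probe, with ratios of 0.81 and -0.56. Its growing follicle read 7.21 on the first of these arrays and 8.58 on the other. All 3 probes passed the study's threshold. The growing follicles lay close to background, and the signal was above the negative controls on 6 of 8 arrays for the brightest probe, 5 of 8 for EMBV3_09332 and 1 of 8 for EMBV3_16373, so these ratios are not exact for the growing phase. Atretic follicles were above the negative controls on 8, 8 and 7 of 8 arrays.

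CASP4 is also expressed by leukocytes, so their markers are given beside it. Of 11 leukocyte markers, 7 were tested, and 0 of these were above the negative controls on all arrays. Their summed level was a log2 intensity of 10.07 to 11.005 in atretic follicles and 10.18 to 10.89 in growing follicles, so the ranges overlapped. The mean ratio over the leukocyte markers was -0.07, 0.13, 0.72 and -0.05 in pairs 1 to 4. The brightest CASP4 probe had 1.58, 1.30, 2.25 and 0.98 in the same pairs. Of the 7 leukocyte markers tested, 4 had a mean ratio above 0. PTPRC, the pan-leukocyte marker, had ratios of -0.85, -0.34, 0.26 and -0.47. The macrophage adaptor TYROBP had 0.21, 0.80, 1.70 and 0.00. The part of leukocytes in the CASP4 difference was not tested. In these bulk samples, fewer cells of a type and less RNA per cell cannot be told apart.

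Among the 5 anti-apoptotic BCL2 family members, 1 was higher in atretic follicles and 4 did not pass the threshold, with a median ratio of -0.03. BCL2L2 encodes BCL-W, which guards mitochondria and is known for survival of germ and supporting cells in the mouse testis. Its brightest probe, EMBV3_40351, read 13.26, 12.10, 13.01 and 12.31 in the atretic follicles of pairs 1 to 4. The growing follicles read 12.24, 11.03, 11.38 and 11.34. The atretic follicle was the higher in each pair, but the phases overlapped, because the lowest atretic follicle lay below the highest growing one. The pair ratios of 1.03, 1.07, 1.62 and 0.97 averaged 1.17 ± 0.15 (SE, n = 4 pairs), or 2.25-fold higher, with a limma adjusted p of 0.716.

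The remaining probes of BCL2L2 did not show this difference. Probe EMBV3_28028 read 8.96, 8.95, 9.43 and 9.73 in atretic follicles, against 9.84, 9.10, 9.34 and 8.03 in growing follicles. Its ratio of 0.19 ± 0.43 had pairs on both sides of 0. Probe EMBV3_32569 read 7.81, 7.18, 7.57 and 7.64 in atretic follicles and 7.90, 6.82, 8.33 and 7.85 in growing follicles, a ratio of -0.17 ± 0.20. With the probes of a gene averaged, BCL2L2 had a ratio of 0.40 and no longer passed. The call for BCL2L2 thus rests on its brightest probe, and which transcripts the probes match was not examined.

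**Figure D2:**
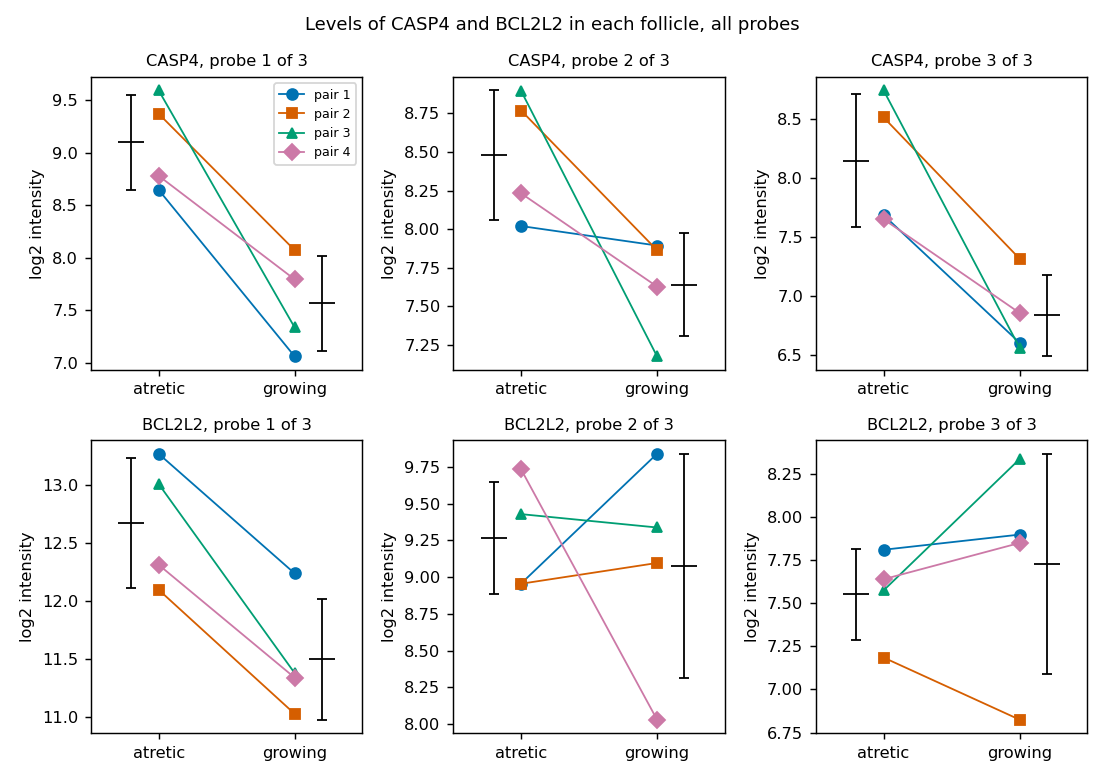
Normalised log2 intensity (vertical axis, scaled per panel) of the 3 probes of CASP4 (top) and the 3 probes of BCL2L2 (bottom) in atretic and growing follicles. Lines join the follicles of a pair, and black bars are the mean and SD of 4 follicles. The 3 CASP4 probes are higher in each atretic follicle, while only the first BCL2L2 probe is.

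BCL2, the founding anti-apoptotic member, read 7.82, 7.88, 7.01 and 7.22 in atretic follicles, against 7.43, 11.63, 8.13 and 7.79 in growing follicles. One growing follicle, that of pair 2, stood far above the rest, and the phases overlapped. The mean ratio was -1.26 ± 0.70 (SE, n = 4 pairs; limma adjusted p = 0.841), and -0.43 without pair 2. With the 8 arrays as separate values and the pair as a block, BCL2 passed the study's threshold with an unadjusted limma p of 0.0231. Atretic follicles were above the negative controls on 4 of 8 arrays and growing ones on 7 of 8. MCL1, a short-lived guardian of mitochondria, had pair ratios of 0.55, -0.55, 0.43 and 0.46 on its brightest probe (mean 0.22 ± 0.22) and means of -0.21 and -0.12 on its other probes. BCL2L1, which encodes BCL-XL, had means between -0.30 and -0.05 on 3 probes, and BCL2A1, a target of NF-kappa-B, had a mean of -0.03 ± 0.12.

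All 3 pore-forming members were tested, and 0 passed the threshold. BAX, which permeabilises the outer mitochondrial membrane, read 8.34, 7.99, 7.95 and 8.41 in atretic follicles and 7.91, 8.23, 8.72 and 8.92 in growing follicles. Atretic follicles were lower in 3 of 4 pairs and the phases overlapped, with a mean ratio of -0.28 ± 0.22 (SE, n = 4 pairs; limma adjusted p = 0.875). The mean of BAX was -0.51 without pair 1 and -0.11 without pair 3, and passed the threshold in neither. BOK, a pore-former abundant in reproductive tissues, read 8.38, 9.30, 8.45 and 9.20 in atretic follicles, against 8.78, 10.60, 8.26 and 8.17 in growing follicles. Its pairs were split, with a mean of -0.12 ± 0.39 (limma adjusted p = 0.973), and the highest level was again in the growing follicle of pair 2. BAK1, the partner of BAX, had ratios of 1.06, -0.92, -0.59 and 0.19 around a mean of -0.06 ± 0.35. Its probe exceeded the negative controls on only 5 of 8 arrays in each phase, so these ratios are not exact.

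Of the 8 BH3-only members listed, 5 were tested and 0 passed. BID, which links death receptors to mitochondria after cleavage by caspase 8, read 11.52, 11.58, 11.07 and 11.36 in atretic follicles, against 11.10, 11.17, 12.28 and 12.11 in growing follicles. Atretic follicles were higher in pairs 1 and 2 and lower in pairs 3 and 4, with a mean of -0.28 ± 0.34 (SE, n = 4 pairs; limma adjusted p = 0.914). BCL2L11, which encodes BIM and is a known target of FOXO factors, read 7.65, 8.14, 7.75 and 7.75 in atretic follicles and 7.56, 7.66, 7.58 and 7.35 in growing follicles. The atretic follicle was higher in all 4 pairs, although the phases overlapped by a small margin. The mean of BCL2L11 was 0.29 ± 0.12 (limma adjusted p = 0.793), a 1.22-fold difference, below the fold threshold. BMF (0.20 ± 0.18), BAD (0.09 ± 0.18) and HRK (-0.15 ± 0.14) were dim, and in growing follicles they were above the negative controls on 2, 1 and 5 of 8 arrays in that order.

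Besides CASP4, the caspases tested were CASP9, CASP8, CASP6 and CASP1, and 0 of these passed. CASP2 had a single probe that was at background on all arrays and was not tested. CASP9, the initiator caspase of the apoptosome, read 10.69, 11.32, 11.83 and 11.10 in atretic follicles, against 11.43, 10.03, 9.68 and 9.69 in growing follicles. The growing follicle of pair 1 was as high as the atretic follicles, while the other growing follicles lay below all of them. The mean ratio was 1.03 ± 0.49 (SE, n = 4 pairs; limma adjusted p = 0.822), and 1.62 in pairs 2 to 4, where CASP9 passed the study's threshold. Without pair 3 instead, it was 0.65. The other probes of CASP9 averaged 0.51 ± 0.47 and -0.10 ± 0.22.

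CASP8, the initiator caspase of death receptors, had ratios of -0.02, -0.68, 1.14 and 0.63 (mean 0.27 ± 0.32), which are not exact, since growing follicles exceeded the negative controls on 4 of 8 arrays. CASP6, which cleaves nuclear lamins, was lower in all 4 atretic follicles of the pairs, at -0.33, -0.32, -0.31 and -0.06, with a mean of -0.25 ± 0.11 below the fold threshold. CASP1, the caspase of inflammasomes, had a mean of -0.14 ± 0.19 on a probe that exceeded the negative controls on 3 of 8 arrays for atretic and 4 of 8 for growing follicles.

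The ratios of the apoptosome genes and of those released from mitochondria differed widely between pairs, and 0 of 6 passed with all pairs included. CYCS, which encodes cytochrome c of the respiratory chain, read 15.13, 12.08, 13.34 and 13.30 in atretic follicles, against 12.48, 15.78, 15.86 and 15.96 in growing follicles. The growing follicles of pairs 2 to 4 lay close together and above every atretic follicle, whereas the growing follicle of pair 1 lay far below them. The pair ratios of 2.64, -3.70, -2.52 and -2.66 averaged -1.56 ± 1.11 (SE, n = 4 pairs; limma adjusted p = 0.867). In pairs 2 to 4 alone the mean was -2.96, past the study's threshold at a limma adjusted p of 0.148, and with pair 2 left out instead it was -0.84. Cytochrome c has many processed copies in mammalian genomes, so it is uncertain which of them the probe reads.

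APAF1, the scaffold of the apoptosome, read 8.11, 10.27, 10.46 and 9.01 in atretic follicles and 10.15, 8.83, 8.14 and 8.27 in growing follicles. Pairs 2 to 4 had higher levels in the atretic follicle and pair 1 a lower level. The mean was 0.62 ± 0.74 (SE, n = 4 pairs; limma adjusted p = 0.914), and 1.502 in pairs 2 to 4, where APAF1 passed the threshold. With pair 3 left out instead, the mean was 0.049. DIABLO, which frees caspases from their inhibitors, had ratios of 0.59, -1.05, -1.26 and -0.30 (mean -0.51 ± 0.34), and it too passed only without pair 1, at a mean of -0.87. AIFM1, a mitochondrial flavoprotein that can move to the nucleus, had ratios of 1.26, -0.95, -0.67 and -0.10. The nuclease ENDOG had a mean of 0.33 ± 0.31 and the protease HTRA2 a mean of 0.07 ± 0.20.

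The granulosa markers of the 4 pairs are given beside these genes. Their mean ratio was 1.10 in pair 1, against 0.08, -1.29 and 0.03 in pairs 2, 3 and 4. CYP19A1, the aromatase that makes oestradiol, had ratios of 4.48, 1.38, -3.98 and 0.66 on its brightest probe. On that probe the atretic follicle had more of it than its growing partner in pairs 1, 2 and 4. The other CYP19A1 probes had the same signs in pairs 1 to 3 but ratios of -0.14 and -0.50 in pair 4. The granulosa markers did not move alike, so their mean hides opposite ratios. AMH had ratios of 2.42, -2.02, -2.05 and -0.99, whereas GATM had -3.71, 0.57, 2.37 and 1.43. In pair 1, FST (3.33), INHA (2.45), INHBA (1.36), NR5A2 (1.18) and HSD17B1 (0.57) were higher in the atretic follicle, like CYP19A1 and AMH. FSHR (-0.62) and FOXL2 (-0.42) were lower there, like GATM. GATM read 6.76 in the atretic follicle of pair 1, below the negative control level of 7.06. The theca markers, 4 of 6 of which were above the negative controls on all arrays, had mean ratios of 0.54, -0.25, -0.63 and -0.13. Among them CYP17A1, near background in part of the follicles, had ratios of 1.78, -1.69, -1.75 and -0.41. It read 9.49, 7.42, 7.36 and 7.19 in atretic follicles, against 7.72, 9.11, 9.12 and 7.60 in growing follicles. The summed level of the theca markers was 12.04 to 12.47 in atretic follicles and 11.62 to 12.68 in growing follicles, so the ranges overlapped. The study read high CYP17A1 in 1 atretic sample as likely theca contamination and left that sample out of its qRT-PCR analysis. Whether it is among these follicles was not established. The part of these differences in the ratios of CYCS, APAF1 and CASP9 was not tested.

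**Figure D3:**
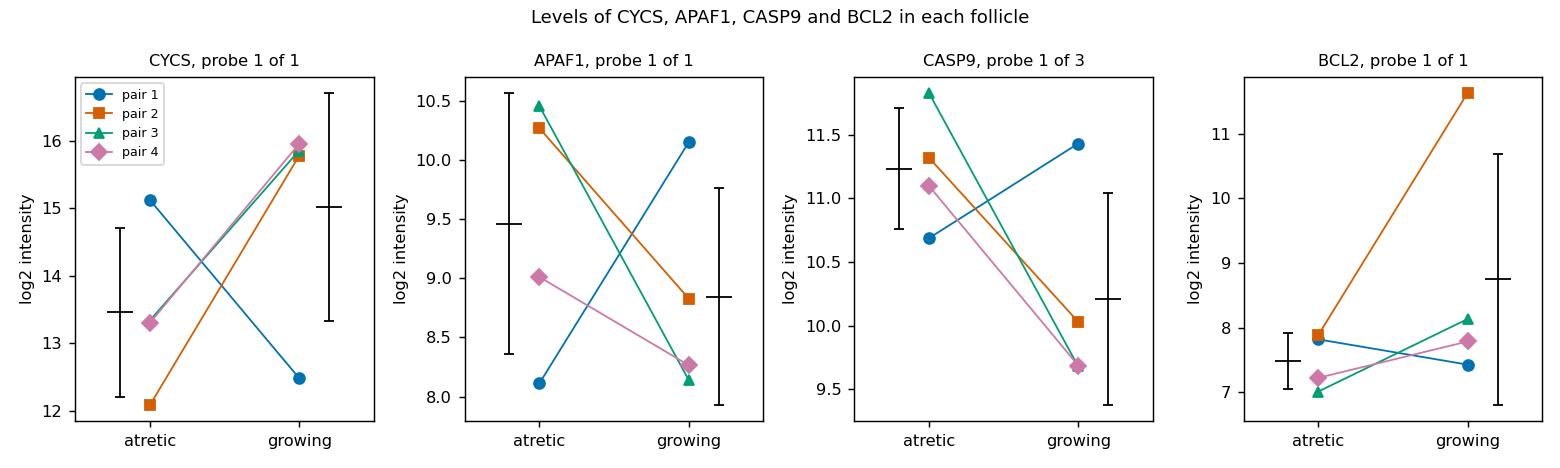
Normalised log2 intensity (vertical axis, scaled per panel) of CYCS, APAF1, the brightest CASP9 probe and BCL2 in atretic and growing follicles. Lines join the follicles of a pair, and black bars are the mean and SD of 4 follicles. Pair 1 crosses the other pairs for CYCS, APAF1 and CASP9, and BCL2 is set apart by the growing follicle of pair 2 at 11.63.

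The inhibitors had mean ratios above 0 for 4 of 4 members tested, with a median of 0.23, and 0 passed the study's threshold. Of all named genes, 52.3% had a mean above 0. Of 4 other inhibitors of apoptosis tested outside the members, 1 had a mean above 0. Their median was -0.17, with means from -1.65 to 0.59. MDM2, the ligase that degrades p53, read 7.80, 7.95, 8.58 and 8.15 in atretic follicles, against 7.77, 7.33, 7.77 and 7.99 in growing follicles. Each atretic follicle was above its partner, by only 0.03 in pair 1, and the phases overlapped. The mean of MDM2 was 0.40 ± 0.17 (SE, n = 4 pairs; limma adjusted p = 0.794). BIRC3, an inhibitor of apoptosis that acts in TNF receptor signalling, read 10.91, 10.14, 10.53 and 10.37 in atretic follicles and 10.62, 9.71, 10.20 and 10.20 in growing follicles. The averaged differences were small and alike, with the atretic follicle higher by 0.17 to 0.43, and the phases overlapped. The dye-swapped arrays of pair 4 differed in sign, at 0.45 and -0.11. Its mean of 0.31 ± 0.10 had a limma adjusted p of 0.759 and stayed below the fold threshold. XIAP, which blocks caspases directly, had a mean of 0.01 ± 0.14. CFLAR, a decoy of caspase 8, had means of 0.16 ± 0.17 and 0.11 ± 0.10 on 2 probes near background.

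The 7 death receptor genes and adaptors were all tested and 0 passed. FAS, the receptor of FAS ligand, read 14.68, 14.93, 15.50 and 14.85 in atretic follicles, against 14.91, 14.53, 14.65 and 14.66 in growing follicles. Atretic follicles were higher in pairs 2 to 4 and lower in pair 1, with a mean of 0.30 ± 0.20 (SE, n = 4 pairs; limma adjusted p = 0.859). The mean of FAS was 0.48 without pair 1 and 0.12 without pair 3, and passed the threshold in neither. TNFRSF21, also called death receptor 6, read 7.09, 6.96, 7.31 and 7.07 in atretic follicles and 7.09, 9.28, 6.89 and 7.06 in growing follicles. The growing follicle of pair 2 stood far above the others, which lay close to background, and the probe exceeded the negative controls on 2 of 8 arrays for atretic and 3 of 8 for growing follicles. The mean of TNFRSF21, -0.47 ± 0.50 (limma adjusted p = 0.904), was 0.15 without pair 2.

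The growing follicle of pair 2 therefore held the highest BCL2, BOK and TNFRSF21 of the 8 follicles. It also held the highest MCL1, CASP8, DIABLO and TRADD. These genes are named because they were highest there. The share of all named genes that were highest in that follicle was not counted, so the list is a description only. Of the 6 endothelial markers tested, KDR read 11.03 in that follicle, its highest level of the 8, while the others read 7.14 to 7.50 there, close to background. The part of endothelial cells in these levels was not tested.

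Among the adaptors, FADD, which bridges death receptors to caspase 8, had means of -0.20 ± 0.19 and -0.44 ± 0.11 on its probes. The dimmer of them, EMBV3_41628, was lower in all 4 pairs, with an unadjusted limma p of 0.0114, but its fold stayed below 1.5. TRADD, the adaptor of the TNF receptor, had ratios of 0.69, -0.99, -0.66 and -0.03. TNFRSF1A, that receptor, had a mean of 0.25 ± 0.17, the kinase RIPK1 a mean of 0.05 ± 0.18 and FAS ligand (FASLG) a mean of 0.05 ± 0.12 near background.

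The processing was varied to see which of these ratios depended on it. CASP4 passed the study's threshold in 20 of 20 alternatives, with ratios from 1.17 to 1.77, and BCL2L2 in 19 of 20, from 0.40 to 1.41, the exception being the mean over its probes. CASP9 passed in 7 of 20 alternatives. With the 8 arrays as separate values and the pair as a block, 4 members passed, BCL2 lower and BCL2L2, CASP4 and CASP9 higher, while 8.98% of named genes and 6.18% of probes passed. In that fit 21 probes of the array, CASP4 among them at a limma adjusted p of 0.0389, passed the adjusted threshold, and BCL2L2 had 0.0530. With a term for dye added, both did, at 0.0323 for CASP4 and 0.0309 for BCL2L2. These fits treat the dye-swapped arrays of the same RNA as partly separate values.

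**Figure D4:**
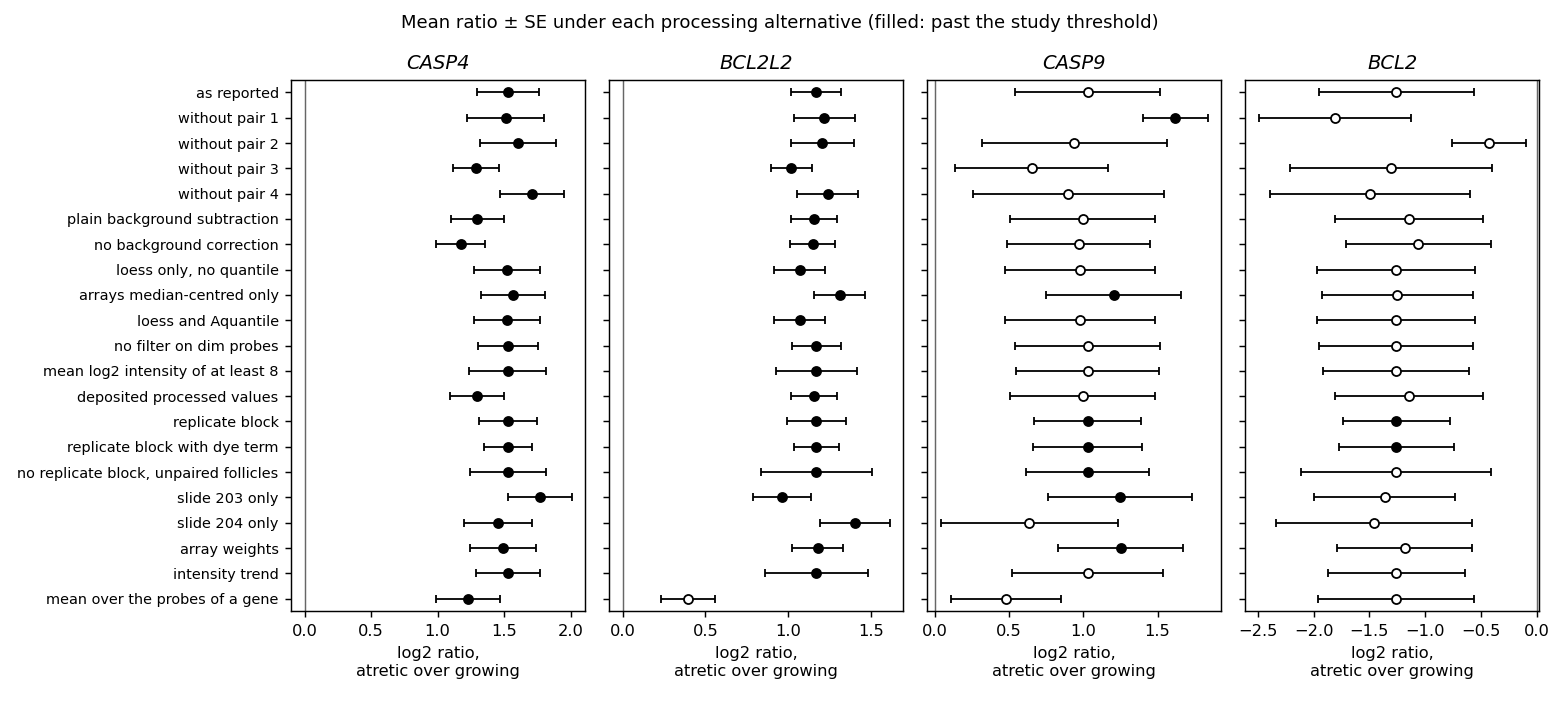
Mean log2 ratio of atretic over growing follicles with SE (horizontal axis, scaled per panel) for CASP4, BCL2L2, CASP9 and BCL2 under each way of processing the arrays (rows). Filled points passed the study's threshold. CASP4 is filled in every row, BCL2L2 in every row but the mean over its probes, and BCL2 only with the pair as a block.

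Other genes of the pathway were described from a list of 93 symbols, of which 70 were tested. The threshold was passed by 1 higher and 3 lower in atretic follicles, with 32 means above 0 and 38 below. This count of 4 of 70 lies near the 5.11% of all named genes that passed, so the values of these genes are given as a description. LTA, the ligand lymphotoxin alpha, read 11.02, 10.32, 10.35 and 9.35 in atretic follicles, against 13.62, 12.79, 10.79 and 10.75 in growing follicles, a mean of -1.73 ± 0.41. LMNB1, a nuclear lamin cut by caspases, read 12.79, 11.79, 12.62 and 11.65 in atretic follicles and 14.93, 13.98, 12.75 and 12.97 in growing follicles, a mean of -1.44 ± 0.39. PERP, a p53 target of epithelial junctions, read 12.52, 11.78, 12.18 and 10.81 in atretic follicles and 14.60, 13.17, 12.36 and 12.21 in growing follicles, a mean of -1.26 ± 0.32. These 3 genes were lower in all 4 pairs, least so in pair 3, and each overlapped between phases.

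BIRC6, a large ubiquitin-conjugating inhibitor of apoptosis, read 12.12, 11.93, 12.23 and 12.47 in atretic follicles, against 11.96, 11.37, 11.53 and 11.53 in growing follicles. Its mean of 0.59 ± 0.16 was at the edge of the fold threshold, and it passed in 8 of 20 alternatives. The other probes of BIRC6 did not show the difference, with means of 0.29 ± 0.27 and -0.0034 ± 0.10, and the second probe of PERP, near background, averaged -0.16 ± 0.26. All 4 genes had a limma adjusted p of 0.716. None passed among the 16 other BCL2 family and pore genes tested or the 9 of survival signalling and FOXO, with median ratios of -0.13 and 0.13.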

How the data were processed

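The authors scanned 8 2-colour arrays on 3 slides and deposited median spot and background intensity values for both channels, without background correction (Array-Pro Analyzer 6.4 and FlexArray 1.6.1 are named in the submitters' processing notes and the study's methods). They also deposited log2 ratio values of Cy5 over Cy3, which correlated at 0.9986 or above with ratios rebuilt here by plain subtraction, loess and quantiles, with array medians from -0.02 to -0.01. RNA had been amplified linearly before labelling.

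Here intensities were corrected with normexp (offset 50), normalised by loess and quantiles without the 1426 control spots, turned to atretic over growing and averaged over each dye swap. Spots excluded in the image software were treated as missing (4 to 50 per array, 0 of them on probes of the genes described). The median spot was 4.10 to 5.45 times its background in Cy5, and 8.97 to 13.6 times in Cy3. The number of arrays limits the precision. Probes of mean log2 intensity 7 or more were fitted in limma 3.58.1 (R 4.3.3), tested two-sided against 0 with Benjamini-Hochberg adjustment over all 36295 probes. The study also states a minimum of 7, but it used background subtraction, so the filters are not the same. Here 7 lies just below the negative control level of 7.06, so probes near background were also tested. The fit was tested on simulated data. Pair numbers came from the area of the slide or, for 1 array, from its title. For 8 of 8 arrays the highest correlation was with the same-numbered array. Arrays with the same number hold the same pair of RNA samples.

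Of all probes, 21790 had 1 gene symbol and 22004 were unnamed. No coordinates or sequences are given, because neither a genome build nor probe sequences were used here. A level counted as above the negative controls where it exceeded the 95th percentile of 153 such spots in its channel. The genes and lists were chosen with earlier results of these data known. Genes given in full were those past the study's threshold and, in each role group, the 2 with the largest mean ratio of either sign. The markers PTPRC, TYROBP, CD68, CYP19A1, AMH, GATM, CYP17A1 and KDR were named after their values were seen. Alternatives covered the background correction, normalisation, intensity minimum, pairing, slide, array weights, probe rule and each pair left out.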

Additional observations from a re-analysis of the deposited data

Results flagged for a closer look

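For each of the 35 genes tested, the levels of atretic follicles, the levels of growing follicles and the pair ratios were examined. Of these 105 groups of 4 values, 9 held a value far from the other 3. Chance alone marks about 1 in 20 of independent groups of normally spread values. These groups are not independent, because the ratios are built from the levels and the genes share the follicles. The count of 9 is therefore a description only. The growing follicle of pair 2 stood apart for BCL2, at 11.63 with the nearest growing follicle at 8.13, and for TNFRSF21, at 9.28 with the nearest at 7.09. The pair 2 ratio of TNFRSF21, -2.33, stood apart with it. The growing follicle of pair 1 stood apart for CYCS, at 12.48 with the nearest growing follicle at 15.78.

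Among the pair ratios, that of pair 2 stood apart for MCL1 at -0.55, and that of pair 3 for BCL2L2 at 1.62 and for FASLG at -0.23. The ratio of pair 4 stood apart for CASP1 at 0.49 and for CASP6 at -0.062. For BCL2L2 the value apart lay on the same side of 0 as the other pairs, and so did that of CASP6.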

How the results depend on the processing

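With each pair left out in turn, 781 to 3402 probes of the array passed the study's threshold, with 2 to 6 member genes, 3 to 9 member probes and 3 to 11 related genes, the highest counts without pair 1. With the pair as a replicate block there were 2244 probes, 4 member genes and 8 related genes, and with a dye term added 2145, 4 and 8, and neither changed the call of a member other than BCL2 and CASP9. Slide 203 alone, which holds 1 dye orientation, gave 2569 probes and 4 member genes, the mean over the probes of a gene gave 1 member gene, and array weights and median-centring gave 7 related genes each. The median member ratio was -0.054 at a mean log2 intensity of at least 8, where 21 members were left, and -0.034 on slide 204 alone. Median-centring turned the split of probes to 1225 higher of 1684, and loess alone to 490 higher of 1162, against 656 of 1275. Levels did not overlap for 2 members instead of 1 after median-centring or loess with Aquantile.

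Reversed ratios were those of BAX on slide 204 (0.10), BOK without pair 2 (-0.51 to 0.27 with each pair left out) and with array weights (0.12), BID without pair 3 (-0.52 to 0.025) and TNFRSF21 without pair 2 (-0.77 to 0.15). The 2nd BCL2L2 probe reversed without pair 4 (-0.31 to 0.55) and on slide 204 (-0.21), and the 3rd without pair 3 (-0.35 to 0.021). The 2nd CASP4 probe fell short of the threshold without pair 2, 3 or 4 and on slide 204 (0.55 to 0.92). The causes were not tested. Each slide alone holds 1 dye orientation, or 1 array, so slide and dye cannot be told apart. CASP4, CASP8, CASP1, TNFRSF21, FASLG, BCL2, BCL2A1, BAK1, BMF, BAD, HRK and CFLAR were at or near background in part of the follicles, so their ratios are not exact.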
